A study of Mus musculus with 18 samples.

Results

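Kidney RNA of mice that received STZ together with AOS itself was compared with kidney RNA of mice that received STZ and a transfer labelled with AOS. The comparison uses 6 of the 18 libraries of the series, chosen by their labelled treatment alone. The 3 libraries called STZ+AOS carry the treatment STZ+AOS10mg/kg, and the 3 called STZ+AOS-FMT carry STZ+AOS10mg/kg-FMT. All 6 come from ICR mice, an outbred stock, aged 10 weeks, and both groups share STZ. A further 3 libraries labelled STZ+control-FMT, the same age and stock with a control transfer, are given beside some results as a reference for transfer as such. STZ commonly stands for streptozotocin, which kills the insulin-producing cells of the pancreas and makes rodents diabetic. FMT is that of faecal microbiota transplantation, in which gut microbes of donors are given to recipients. The labels do not spell out AOS. They do not state the sex of the mice, the donors' own treatment, the route or length of dosing, or the number of transfers, so direct dosing and transfer may differ in more than the presence of AOS. The series explores faecal transfer in kidneys after STZ damage. The titles number the libraries of a group 1 to 3, and nothing states that each is another mouse, so p-values rest on a spread among samples that may be technical.

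The proximal tubule is the segment of the nephron that takes back most filtered glucose, phosphate, amino acids and protein, and that secretes organic anions and drugs from the blood. Its cells depend on mitochondria, and when injured they lower many of these transporters and switch on genes such as Havcr1, which codes for kidney injury molecule, and Lcn2, which codes for a siderophore-binding lipocalin. The adrenal gland lies against the upper pole of the kidney. Its cortex makes steroid hormones with enzymes that include Cyp11b1, and its medulla makes catecholamines.

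Values are FPKM, reads or fragments per kilobase of gene length and scaled to the size of the library, and the log2 differences are of FPKM + 1, STZ+AOS minus STZ+AOS-FMT, with their standard errors. Between 11581 and 12607 genes reached 1 FPKM in the 6 libraries, and the depth is unknown because the table holds no counts. Kidney markers were present throughout: Umod of the thick ascending limb lay between 306.7 and 605.5 FPKM and Aqp2 of the collecting duct between 108.8 and 434.5.

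The STZ+AOS libraries stand apart from the transfer libraries in adrenal transcripts. Over 16 genes of adrenal steroid synthesis the summed level was 3122 FPKM in STZ+AOS replicate 1, 235.4 in replicate 2 and 3850 in replicate 3. In STZ+AOS-FMT it was 81.48 to 86.07, with 2 to 5 of the 16 genes at 0. In STZ+control-FMT it was 77.66 to 87.66. Of the libraries labelled control, STZ or AOS, control replicate 3 was also high at 1141 FPKM, and the others had 80.35 to 155.7. The sum over 14 genes of the adrenal medulla was 450.5, 96.31 and 342.3 FPKM in STZ+AOS and 83.54 to 131.7 in STZ+AOS-FMT. Replicates 1 and 3 of STZ+AOS are thus high in adrenal RNA, and replicate 2 is lower but above the transfer libraries in the cortical genes. The part of this adrenal RNA in the differences that follow was not tested. The fit without the libraries above 100 FPKM of Cyp11b1 leaves out STZ+AOS replicates 1 and 3 and control replicate 3. STZ+AOS replicate 2 is then the only STZ+AOS library and is assumed to vary like the other groups.

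Of 12682 genes tested, 1919 (15.1%) passed an adjusted p of 0.05 in limma with Benjamini-Hochberg adjustment: 1413 (11.1%) were higher in STZ+AOS and 506 (3.99%) were lower. The 2 groups did not overlap in 5417 genes (42.7%), with the 3 libraries of one group wholly above the other in 4214 (33.2%) for STZ+AOS and in 1203 (9.49%) for STZ+AOS-FMT. Called or not, 8946 of the 12682 genes were higher in STZ+AOS and 3729 lower, which is the background for counts of higher members in the lists below. The shares called and without overlap are likewise the background for counts of calls and of genes without overlap. After quantile normalization 5847 were higher, and after median-of-ratios rescaling 7049. The balance of higher and lower calls depends on the scaling. The median log2 difference of all genes was 0.17 as deposited, -0.03 after quantile normalization and 0.045 after median-of-ratios rescaling, and the share of calls that were higher was 73.6%, 41.1% and 50.9%. Calls also depend on single libraries. There were 127 calls without STZ+AOS replicate 1, 2142 without replicate 2 and 1338 without replicate 3, and 624, 42 and 146 without STZ+AOS-FMT replicates 1, 2 and 3. With the libraries above 100 FPKM of Cyp11b1 left out there were 6, and with Cyp11b1 as a covariate there were 0, where 298 genes were higher and 803 lower at an unadjusted p under 0.05 in limma. Cyp11b1 itself separates the 2 groups, so as a covariate it takes up part of any difference between them. The STZ+AOS libraries varied more among themselves, with a median SD of 0.207 on the log2 scale against 0.113 for STZ+AOS-FMT. Among genes called higher, STZ+AOS replicate 1 was the highest of the 3 in 59.6% and replicate 2 the lowest in 65.7%. Over all genes tested those shares were 49.7% and 28.3%.

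Proximal tubule transporters and enzymes were lower after AOS itself than after the transfer. Of 20 proximal tubule markers, 19 were lower in STZ+AOS, 10 of them past the threshold, and 0 were called higher. The median log2 difference of the 20 was -0.80, which is 0.974 below the median of all genes (a median of -0.75 after quantile normalization and -0.95 after median-of-ratios rescaling, with 10 called lower under each). In bulk kidney, fewer proximal tubule cells and less RNA per cell cannot be told apart. Of the 10 calls, 3 held without STZ+AOS replicate 1, 7 without STZ+AOS-FMT replicate 1, 0 without its replicate 2 and 4 without its replicate 3, with adjusted p up to 0.106.

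Slc22a6 and Slc22a8 are the basolateral organic anion transporters through which the proximal tubule takes up drugs, toxins and urate from blood. They lie side by side on chromosome 19, Slc22a6 at chr19:8618039-8628299 and Slc22a8 at chr19:8591254-8611835 (mm10, both on the plus strand). The RefSeq start of Slc22a8 used for its window lies within that gene model. The 250 bases before the RefSeq start of 4 called genes of the list are shown, those whose window lies outside annotated untranslated exons, so that their scarcity of CG dinucleotides can be seen. The others are Slc34a1, the main renal phosphate transporter, and Cubn, which codes for the protein uptake receptor cubilin. Capitals mark each CG, and sequences are from RefSeq on GRCm38.p6, the same build, 5′ to 3′ on the strand of the gene, which is the minus strand for Cubn and the plus strand for the rest. The windows are chr19:8617746-8617995 for Slc22a6, chr19:8592932-8593181 for Slc22a8, chr13:55399398-55399647 for Slc34a1 and chr2:13491877-13492126 for Cubn.
Slc22a6: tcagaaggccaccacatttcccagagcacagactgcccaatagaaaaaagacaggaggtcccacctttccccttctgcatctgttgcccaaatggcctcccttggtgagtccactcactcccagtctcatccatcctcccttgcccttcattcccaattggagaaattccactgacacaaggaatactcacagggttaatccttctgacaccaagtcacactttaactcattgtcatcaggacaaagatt
Slc22a8: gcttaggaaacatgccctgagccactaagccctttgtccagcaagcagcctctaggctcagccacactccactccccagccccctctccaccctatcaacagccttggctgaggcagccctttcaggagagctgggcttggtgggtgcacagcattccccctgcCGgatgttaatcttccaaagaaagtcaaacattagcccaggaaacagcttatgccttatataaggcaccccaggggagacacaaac
Slc34a1: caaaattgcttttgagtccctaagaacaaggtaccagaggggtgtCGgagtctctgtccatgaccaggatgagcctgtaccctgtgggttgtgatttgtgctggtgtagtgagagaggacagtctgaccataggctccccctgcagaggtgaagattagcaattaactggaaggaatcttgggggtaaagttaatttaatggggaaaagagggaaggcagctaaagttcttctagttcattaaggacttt
Cubn: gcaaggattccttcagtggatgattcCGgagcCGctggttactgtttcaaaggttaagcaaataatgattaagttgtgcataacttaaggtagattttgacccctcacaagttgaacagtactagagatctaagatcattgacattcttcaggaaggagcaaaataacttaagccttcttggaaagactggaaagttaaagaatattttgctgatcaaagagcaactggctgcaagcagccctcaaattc
The window of Slc22a6 holds 0 CG, those of Slc22a8 and Slc34a1 hold 1 each and that of Cubn 2. Of the 10 called markers, 9 have such a window, with a median of 2 CG and a range of 0 to 23, so the list is not uniform. The windows not printed, which overlap untranslated exons, hold 23 CG for Ass1, 18 for Lrp2, 17 for Gatm, 14 for Slc13a3 and 1 for Acsm1. The printed windows are thus not typical of the list. The 9998 tested genes with a window had a median of 15 CG, the 403 called lower 12 and the 1093 called higher 18. Windows with 4 CG or fewer made up 13.3% of tested genes, 17.6% of those called lower and 10.1% of those called higher. CG was chosen for this description after the genes were known to be lower, and the counts describe the letters only.

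Slc22a6 measured 222.4, 315.8 and 217.7 FPKM in STZ+AOS and 514.3, 588.8 and 476.5 in STZ+AOS-FMT. The groups did not overlap, and the mean was 2.09-fold lower after AOS itself (252 ± 55.4 against 526.5 ± 57.1, SD, n = 3; log2 difference -1.08 ± 0.22, limma adjusted p = 0.018). Slc22a8 measured 42.46, 60.69 and 40.07 FPKM against 167.6, 133.3 and 119.4. It was 2.94-fold lower (-1.54 ± 0.38, limma adjusted p = 0.025). The control-transfer libraries reached 440.7 to 503.5 FPKM for Slc22a6 and 55.58 to 128.5 for Slc22a8, so for the second gene they lay near the STZ+AOS values at their lower end.

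Both renal phosphate transporters named here were lower. Slc34a1 measured 1288, 1898 and 1458 FPKM in STZ+AOS and 2526, 2966 and 2747 in STZ+AOS-FMT (-0.84 ± 0.20, limma adjusted p = 0.023). Slc34a3, a second renal phosphate transporter, measured 14.17, 18.25 and 14.22 against 29.65, 30.97 and 30.28. Its difference of -0.93 ± 0.17 (limma adjusted p = 0.010) was lost only without STZ+AOS-FMT replicate 2, at an adjusted p of 0.055. Of 7 glucose transporters tested, 1 was called lower and 1 higher. Slc5a2, the main glucose carrier of the early proximal tubule and the target of gliflozin drugs, measured 184.5, 201.9 and 185.7 FPKM against 310.4, 345.1 and 285.9 (-0.71 ± 0.12, limma adjusted p = 0.010, and 0.054 without the same library). Slc5a1, the glucose carrier of the later tubule, did not pass, at -0.19 ± 0.25. Slc2a1, the glucose carrier found in most cells, went the other way, with 39.05, 23.96 and 36.13 FPKM against 17.57, 14.21 and 16.05 (0.98 ± 0.25, limma adjusted p = 0.027).

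**Figure D1:**
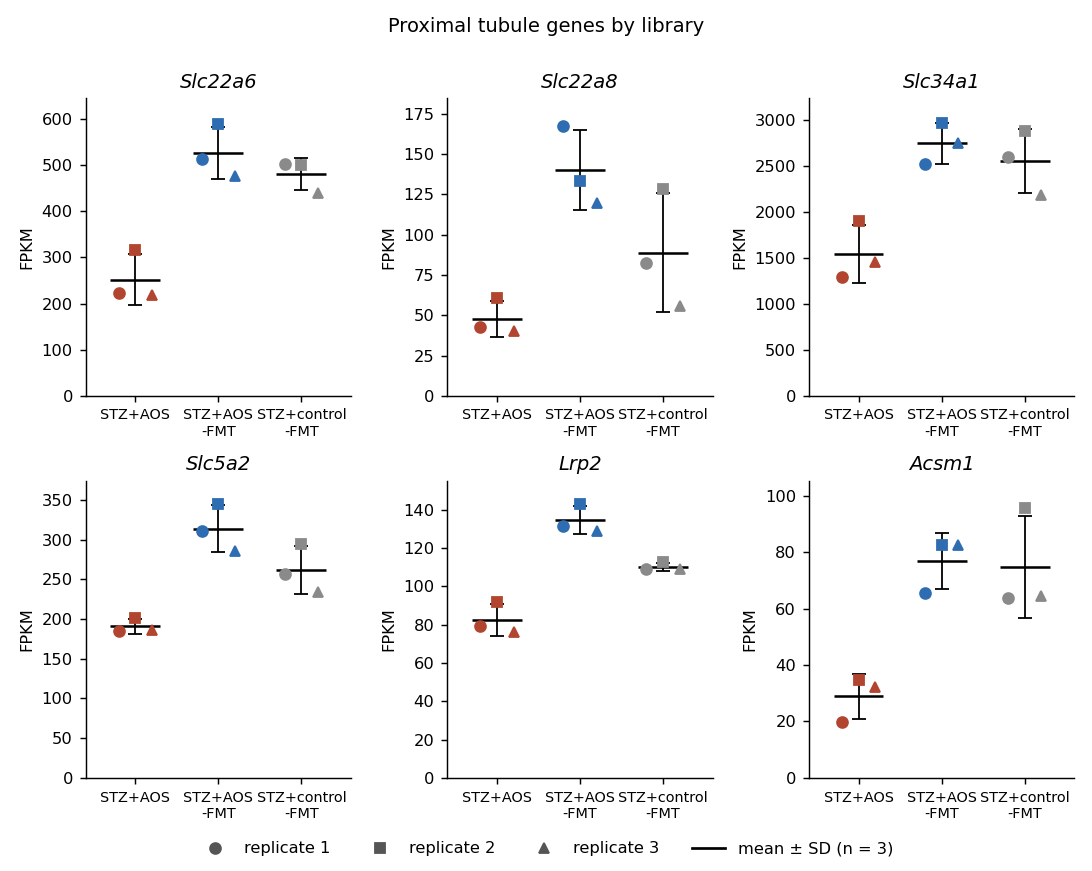
FPKM of 6 proximal tubule genes by library in mice given AOS itself, the AOS transfer or the control transfer, with points for replicates 1 to 3 and bars for the mean ± SD (n = 3). All 3 STZ+AOS points lie below the 3 STZ+AOS-FMT points in each of the 6 genes, as for Slc22a6 with 217.7 to 315.8 against 476.5 to 588.8 FPKM.

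Protein uptake and amino acid genes of the same segment were among the calls. Lrp2, which codes for the endocytic receptor megalin, measured 79.04, 91.68 and 76.28 FPKM in STZ+AOS and 131.6, 143 and 129 in STZ+AOS-FMT (-0.70 ± 0.15, limma adjusted p = 0.018). Its partner Cubn measured 32.90, 46.38 and 49.80 against 59.86, 55.97 and 68.73 (-0.52 ± 0.14, limma adjusted p = 0.029). The remaining calls of the list were Slc13a3, a dicarboxylate transporter, Acsm1, a mitochondrial acyl-CoA synthetase, Gatm, the first enzyme of creatine synthesis, and Ass1, an enzyme of arginine synthesis, with differences of -1.001, -1.41, -0.95 and -0.85. The 1 member that was not lower was Slc5a12, a lactate transporter, which had 113.7, 161.1 and 298 FPKM against 143.8, 158.4 and 212.7. Hnf4a, a transcription factor of this segment, had 128.5, 155.6 and 292 against 231.3, 232.1 and 213.9 and did not pass (adjusted p = 0.28 in limma).

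Among 16 organic ion and drug transporters, 7 were called lower and 0 higher, with a median log2 difference of -0.54. Beside Slc22a6 and Slc22a8 these included Slc22a4 and Slc22a5, carriers of organic cations and carnitine, Slc22a12, a urate exchanger, and Abcg2, a urate and drug efflux pump. Without STZ+AOS replicate 1 or without STZ+AOS-FMT replicate 2, 1 of the 7 calls held.

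Genes of phosphate and vitamin D handling were lower in 8 of 10 tested, 5 of them called, against 1 called higher. Kl, which codes for klotho, the co-receptor that lets the kidney sense the hormone FGF23, measured 111.9, 139.1 and 102.2 FPKM against 158.6, 185.1 and 161.1 (-0.52 ± 0.14, limma adjusted p = 0.031; 0.051 after quantile normalization). Pth1r, the parathyroid hormone receptor, measured 175, 198.8 and 160.6 against 300.2, 306.8 and 271.8 (-0.72 ± 0.21, limma adjusted p = 0.039, and 0.070 after quantile normalization). Fgfr1, a receptor that pairs with klotho, was the member called higher, at 17.19, 14.47 and 16.97 against 12.73, 9.55 and 11.46. The vitamin D enzymes Cyp27b1 and Cyp24a1 overlapped between groups and did not pass. Without STZ+AOS-FMT replicate 2, 0 of these 6 calls held in limma, and 1 held without STZ+AOS replicate 1.

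Several genes of the Nat8 cluster on chromosome 6 were among the largest falls. Nat8 codes for the enzyme of the endoplasmic reticulum that acetylates cysteine conjugates, the last step in making mercapturic acids, and the Nat8f genes are its tandem copies. Nat8f6 (chr6:85808024-85820954, mm10, minus strand) measured 34.19, 46.90 and 36.36 FPKM in STZ+AOS and 121.5, 121 and 164.1 in STZ+AOS-FMT. It was 3.46-fold lower (-1.76 ± 0.25, limma adjusted p = 0.0074), and the control-transfer libraries lay between the groups at 63.66 to 83.04. Nat8f1 (chr6:85910154-85915687, minus strand) measured 100.3, 135.4 and 104.5 against 344.4, 293.4 and 322.8, with 236 to 250 in the control transfer. It was 2.82-fold lower and had the smallest adjusted p of all genes (-1.50 ± 0.15, limma adjusted p = 8.61e-04). With STZ+AOS replicates 1 and 3 left out, its difference rests on replicate 2 alone, at 135.4 FPKM.

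Along the cluster, 5 of the 9 genes between Alms1 and Dusp11 were called lower: Nat8f7, Nat8f3, Nat8f6, Nat8f1 and Tprkb, with differences of -1.61, -1.43, -1.76, -1.50 and -0.79. Nat8f5, Nat8, Nat8f2 and Nat8f4 had differences of -0.62, -0.58, -0.66 and -0.31 and did not pass. The flanking genes Alms1 and Dusp11 had 0.045 and -0.10. Counts within the cluster are uncertain, since the genes share sequence. Of the 50-base words in the GENCODE transcripts, 82.3% of those of Nat8f7, 68% of Nat8f6, 52.1% of Nat8f3 and 45.6% of Nat8f1 also occur in other genes. Nat8f7 shares 79.5% with Nat8f3. Nat8f1 overlaps Tprkb, which lies on the other strand and codes for a kinase-binding protein, and shares 31% with it, so without strand their reads cannot be told apart there. The Nat8f6 gene model also covers most of Nat8f5. Nat8 itself shares 5.7% of its words and measured 100.7, 161.6 and 184.8 FPKM against 201.2, 206.2 and 242.5 (limma adjusted p = 0.059).

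**Figure D2:**
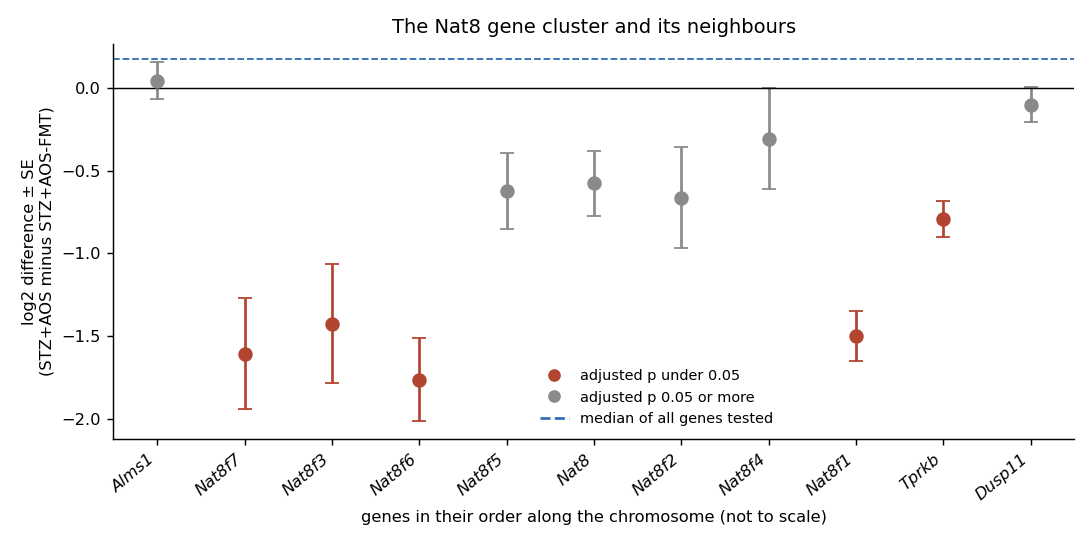
Log2 difference, STZ+AOS minus STZ+AOS-FMT, with its standard error for the genes of the Nat8 cluster in their order along the chromosome. Nat8f7, Nat8f3, Nat8f6, Nat8f1 and Tprkb passed the threshold, from -1.76 to -0.79, while the flanking Alms1 and Dusp11 lie near 0.

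Other large falls were Sectm1b, Aspdh and Mdk. Sectm1b measured 8.02, 14.27 and 10.29 FPKM in STZ+AOS and 37.26, 40.16 and 28.60 in STZ+AOS-FMT (-1.64 ± 0.24, limma adjusted p = 0.0077). Aspdh, annotated as an aspartate dehydrogenase, measured 14.39, 25.49 and 36.95 against 86.26, 59.14 and 83.39 (-1.61 ± 0.44, limma adjusted p = 0.031, and up to 0.117 without STZ+AOS replicate 1 or any 1 STZ+AOS-FMT library). Mdk, which codes for the growth factor midkine, measured 62.85, 36.98 and 18.67 against 136.3, 110.7 and 80.96. Its difference of -1.57 ± 0.50 (limma adjusted p = 0.049) was lost in each fit with 1 library left out, with adjusted p up to 0.149.

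Tubular injury genes were higher after AOS itself, with their highest sum in replicate 1. All 16 tested injury markers were higher in STZ+AOS and 5 were called: Havcr1, Lcn2, Timp1, Anxa2 and Cd44. The median log2 difference was 1.28, and 1.30 and 1.14 under the other scalings. The summed level of the list was 6953, 2287 and 1413 FPKM in STZ+AOS against 923.4 to 1171 in STZ+AOS-FMT and 929.4 to 1400 in the control transfer. Replicate 1 is far above the rest, and replicate 3 is close to the highest control-transfer library. The list summed to 638.3, 847.9 and 3144 FPKM in control, 588.1, 1568 and 2038 in STZ, and 527.5 to 585.8 in AOS.

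Havcr1 (chr11:46735080-46779578) measured 423.1, 31.98 and 7.45 FPKM in STZ+AOS and 2.91, 2.77 and 2.91 in STZ+AOS-FMT. All 3 STZ+AOS libraries lie above the transfer libraries, which are almost equal, but they span a wide range (154.2 ± 233.2 against 2.86 ± 0.08, SD, n = 3; log2 difference 3.67 ± 1.03, limma adjusted p = 0.034). Lcn2 (chr2:32384633-32388252) measured 772.4, 62.81 and 27.19 against 7.34, 3.93 and 5.29 (4.13 ± 1.14, limma adjusted p = 0.033). Timp1, an inhibitor of matrix proteases, measured 72.33, 4.91 and 1.92 against 1.11, 0.51 and 1.01. Cd44, a hyaluronan receptor, was the exception in its order, with 6.31, 1.58 and 12.03 against 0.98, 0.68 and 1.22, so replicate 3 was its highest. Anxa2, a membrane-binding annexin, measured 103.9, 55.43 and 46.47 against 30.40, 18.25 and 25.98. Without STZ+AOS replicate 1, 0 of the 5 calls held in limma, nor did any without any single STZ+AOS-FMT library, with adjusted p up to 0.157. With the libraries above 100 FPKM of Cyp11b1 left out, the Havcr1 difference was 3.09 and rested on STZ+AOS replicate 2 alone.

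Lrg1, which codes for a secreted leucine-rich glycoprotein, was higher in every STZ+AOS library at 34.35, 10.14 and 10.04 FPKM against 3.62, 3.48 and 4.59, with 5.21 to 5.64 in the control transfer (1.74 ± 0.32, limma adjusted p = 0.011, and 0.057 without STZ+AOS-FMT replicate 2). Injury markers that did not pass included Spp1, which codes for osteopontin, at 3564, 1503 and 887 against 643, 547 and 711 FPKM, and Clu, which codes for clusterin, at 1417, 304 and 209.9 against 163.7, 214.7 and 218. For Clu the groups overlapped.

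**Figure D3:**
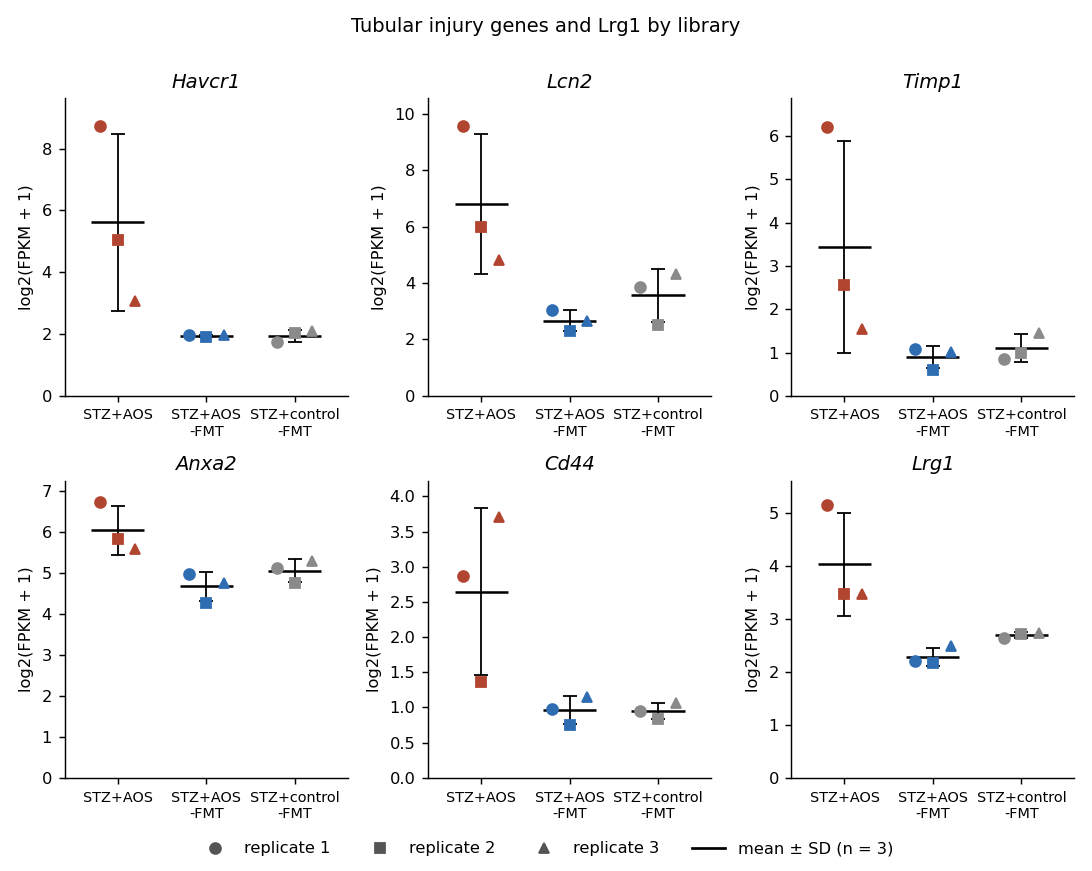
log2(FPKM + 1) of 5 called injury genes and Lrg1 by library in 3 groups, with points for replicates 1 to 3 and bars for the mean ± SD of the log2 values (n = 3). Replicate 1 of STZ+AOS is the highest point for Havcr1 (423.1 FPKM), Lcn2, Timp1, Anxa2 and Lrg1, while replicate 3 is the highest for Cd44.

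Adrenal genes gave the largest rises. All 14 tested genes of adrenal steroid synthesis were called higher in STZ+AOS, with a median log2 difference of 3.88. Cyp11b1, the last enzyme of corticosterone synthesis, measured 316.1, 14.33 and 276 FPKM in STZ+AOS and was listed at 0, 0 and 0.03 in STZ+AOS-FMT (6.77 ± 1.48, limma adjusted p = 0.018). Cyp21a1, the steroid 21-hydroxylase, measured 744.1, 34.13 and 481 against 0.08, 0.04 and 0.22. Star, which moves cholesterol into mitochondria, measured 326.9, 17.47 and 310.5 against 1.29, 1.31 and 1.05. Hsd3b1, Cyp11a1, Akr1b7 and Scarb1 of the same list and Akr1cl, an aldo-keto reductase, were also among the 10 largest rises named. Their differences were 6.96, 6.54, 5.52, 3.91 and 3.88. The 10 also held Chga of the adrenal medulla and the injury gene Lcn2, with differences of 4.58 and 4.13. Akr1b7 was highest in replicate 3, at 1379 FPKM against 219.7 in replicate 1.

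Of 11 tested genes of the adrenal medulla, 6 were called higher: Th, Dbh and Pnmt, which make the catecholamines in sequence, and Chga, Chgb and Scg2, granins of the secretory granule. Chga measured 63.51, 2.53 and 64.78 FPKM against 0, 0 and 0.09. Pnmt measured 23.03, 1.31 and 29.53 and was listed at 0 in all STZ+AOS-FMT and control-transfer libraries. With the libraries above 100 FPKM of Cyp11b1 left out, Chga and Pnmt rest on STZ+AOS replicate 2 alone, and the Chga difference was 1.78. Without STZ+AOS replicate 1, 0 of the 14 cortical and 2 of the 6 medullary calls held in limma. Without STZ+AOS-FMT replicate 2, 0 of either held, with adjusted p up to 0.162.

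The order of the STZ+AOS libraries differs between the gene groups, as their summed levels show. Adrenal cortex genes summed highest in replicate 3 and lowest in replicate 2, while injury genes summed highest in replicate 1 and lowest in replicate 3. The place of replicate 3 above replicate 1 in the adrenal cortex sum rests on the single gene Akr1b7. Cyp11b1, Cyp21a1 and Star were highest in replicate 1. Proximal tubule markers summed to 6033, 8488 and 7411 FPKM in STZ+AOS and 11226 to 12486 in STZ+AOS-FMT. In the control transfer the range was 10034 to 12046. Control replicate 3 (8462) and STZ replicate 3 (8469) were about as low as STZ+AOS replicate 2. The other control, STZ and AOS libraries had 10335 to 14555. Replicate 2, the STZ+AOS library lowest in adrenal RNA, had the highest proximal tubule sum of the 3. With the libraries above 100 FPKM of Cyp11b1 left out, the median log2 difference of the 20 markers was -0.53 and 0 of the 10 calls held in limma.

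**Figure D4:**
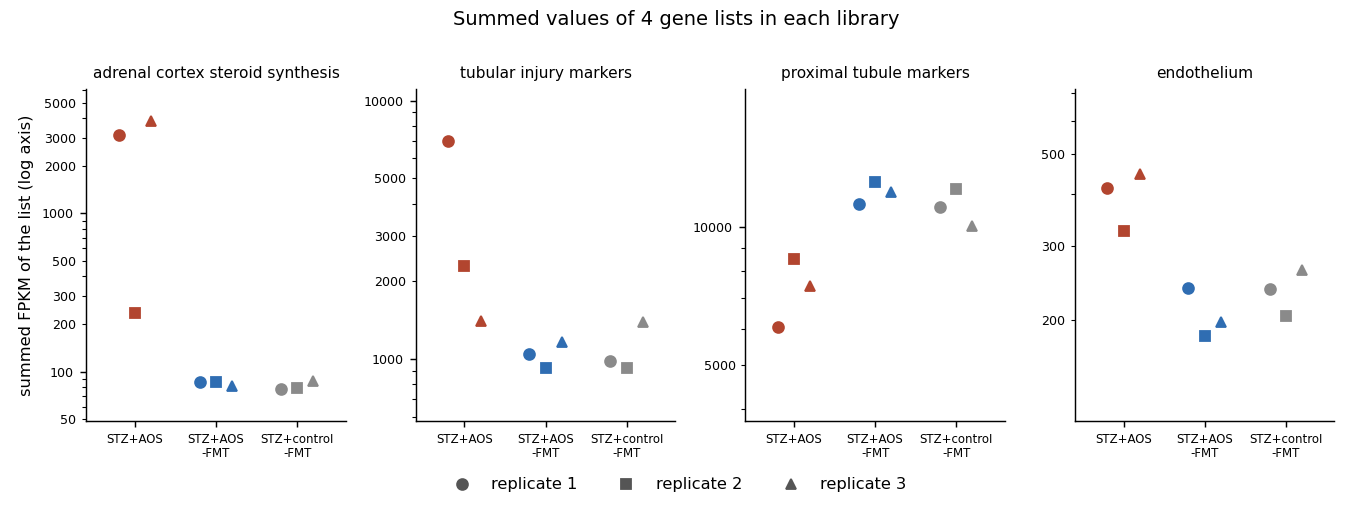
Summed FPKM (log axis) of adrenal cortex genes, tubular injury markers, proximal tubule markers and endothelial genes in each library of 3 groups, with points for replicates 1 to 3. Adrenal cortex sums are 3122, 235.4 and 3850 in STZ+AOS, and proximal tubule sums are lower in each STZ+AOS library than in any other library shown.

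Endothelial genes were higher in each STZ+AOS library. All 10 were higher, without overlap in 10 of 10, and 7 were called, with a median log2 difference of 0.78 (0.59 after quantile normalization, where 4 were called). Over all genes tested, 33.2% were without overlap in this direction and 11.1% were called higher. Pecam1, an adhesion molecule between endothelial cells, measured 32.82, 29.52 and 35.09 FPKM in STZ+AOS and 16.94, 15.19 and 15.26 in STZ+AOS-FMT (0.99 ± 0.27, limma adjusted p = 0.033). Plvap, which forms the diaphragms of fenestrated capillaries, measured 137.7, 109.5 and 179.4 against 71.35, 54.86 and 57.99 (1.18 ± 0.30, limma adjusted p = 0.027). The other calls were Cdh5, Emcn, Flt1, Ehd3 and Esam, and Kdr, a receptor for vascular endothelial growth factor, missed the threshold at an adjusted p of 0.0502 in limma. The summed endothelial level was 413.6, 326.3 and 448.4 FPKM in STZ+AOS. Its order of libraries was that of the adrenal cortex sum, where the order of replicates 1 and 3 rests on Akr1b7 alone. The part of adrenal vessels in the endothelial level was not tested. Without STZ+AOS replicate 1, 0 of the 7 calls held in limma, nor without its replicate 3, nor without STZ+AOS-FMT replicates 2 or 3.

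All 15 tested fibroblast and matrix genes were higher and 4 were called. Pdgfra and Pdgfrb, receptors of stromal cells for platelet-derived growth factor, measured 6.59, 5.15 and 5.59 against 2.07, 1.61 and 2.11 FPKM, and 15.73, 10.23 and 10.08 against 7.74, 4.84 and 5.07. Lox, which crosslinks collagen, measured 6.66, 3.16 and 10.13 against 1.22, 0.92 and 0.72, and Tgfb1, the profibrotic cytokine, 20.74, 12.34 and 11.62 against 9.39, 6.03 and 6.39. The collagens themselves did not pass: Col1a1 measured 10.46, 10.52 and 2.62 against 5.63, 3.19 and 3.57, and Col3a1 23.39, 16.70 and 4.72 against 11.17, 6.70 and 8.05. The 4 calls held without STZ+AOS replicates 2 or 3, while 0 held in limma without STZ+AOS replicate 1 or STZ+AOS-FMT replicate 2, with adjusted p up to 0.130.

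Genes of inflammation were mostly higher but seldom called, where 8946 of all 12682 genes tested were higher. Of 12 macrophage genes all 12 were higher (9 after quantile normalization) and 1 was called, Cd14, a co-receptor for lipopolysaccharide, at 157.9, 23.79 and 30.17 FPKM against 11.70, 7.54 and 10.55. C1qa, a complement subunit made by macrophages, measured 44.31, 36.87 and 27.89 against 24.62, 16.41 and 17.65 and did not pass (limma adjusted p = 0.090). In the complement list, Cfb, the protease of the alternative pathway, was called lower at 132.3, 118.6 and 117.2 against 193.6, 202.9 and 211.3. Csf1, the macrophage growth factor, and S100a9, a granule protein of neutrophils, were called higher. The 13 interferon-stimulated genes tested were all higher (12 under each other scaling), with 0 called in limma and 2 at an unadjusted p under 0.05. Each of these calls was lost without STZ+AOS replicate 1.

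Of 11 NRF2 targets, 5 were called higher: Hmox1, the inducible heme oxygenase, Srxn1, Txnrd1, Gclc and G6pdx, which restore thiols or supply reducing power. Hmox1 measured 140.4, 68.87 and 213.8 FPKM against 46, 46.34 and 37.61 (1.54 ± 0.32, limma adjusted p = 0.018). Nqo1, a quinone reductase, had 44.83, 49.34 and 44.27 against 43.12, 30.93 and 27.81 and did not pass. Of the 5 calls, 0 held in limma without STZ+AOS replicate 1 or without STZ+AOS-FMT replicates 2 or 3, and 2 held without its replicate 1, with adjusted p up to 0.144. All 17 p53 targets were higher (16 after median-of-ratios rescaling) and 0 were called in limma, with 5 at an unadjusted p under 0.05. Their best known member Cdkn1a, an inhibitor of the cell cycle, measured 112.5, 75.97 and 155.1 against 31.83, 25.03 and 23.44 (2.01 ± 0.80, limma adjusted p = 0.090). The groups did not overlap, which also held for 33.2% of all genes tested in this direction.

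Among glucocorticoid-responsive genes, all 12 were higher and 3 were called. Pdk4, which turns off pyruvate oxidation, measured 21.85, 15.08 and 26.59 FPKM against 4.56, 2.27 and 6.57 (2.07 ± 0.37, limma adjusted p = 0.010), and was lost only without STZ+AOS-FMT replicate 2, at 0.060. Cebpd, a transcription factor, measured 17.74, 7.81 and 51.21 against 3.39, 2.58 and 2.98, and Zbtb16, a repressor, 2.22, 1.16 and 9.88 against 0.55, 0.24 and 0.59. Fkbp5 and Tsc22d3, the classic targets of the receptor, overlapped between groups, with 28.56, 23.34 and 93.01 against 25.82, 29.98 and 28.46 for Fkbp5. Only replicate 3 was high in Fkbp5. Of 14 immediate early genes, 3 were called higher, Myc, Klf4 and Jund, and Myc measured 20.69, 4.83 and 6.16 against 1.96, 1.10 and 1.61. Without STZ+AOS replicate 1, Pdk4 was the 1 call of these 6 that held.

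All 22 nuclear genes of oxidative phosphorylation were lower (20 after quantile normalization) and 6 were called, with a median log2 difference of -0.21. The calls depend on the scaling, with 0 after quantile normalization in limma and 11 after median-of-ratios rescaling. Sdhb, a subunit of succinate dehydrogenase, measured 347.7, 402.8 and 407 FPKM against 458.1, 474.9 and 484.5 (-0.30 ± 0.08, limma adjusted p = 0.035). Of 16 genes of gluconeogenesis and glycolysis, 7 were higher and 9 lower, with 1 called higher and 2 lower. Fbp1, the gluconeogenic fructose bisphosphatase, measured 619, 931 and 975 against 1408, 1312 and 1453 (-0.75 ± 0.17, limma adjusted p = 0.019). Pcx, the pyruvate carboxylase that opens gluconeogenesis, was the other lower call, at 70.48, 89.68 and 140.1 against 140.6, 157 and 142.5 (-0.60 ± 0.18, limma adjusted p = 0.038). Pck1 and G6pc of the same pathway did not pass, and Pck1 ranged from 193.2 to 2572 FPKM within STZ+AOS. Of 10 genes of polyol, fructose and inositol handling, 3 were called lower and 0 higher. Sord, Khk and Tkfc, which take sorbitol and fructose through to triose, were each called lower, and Sord measured 341.5, 438.9 and 530.3 against 622.5, 673.2 and 756.8 (-0.66 ± 0.13, limma adjusted p = 0.015). Pfkp, the platelet form of phosphofructokinase, was the higher call of the glycolytic list, at 32.71, 29.45 and 27.87 against 16.52, 16.97 and 13.76. None of these calls held without STZ+AOS-FMT replicate 2, with adjusted p up to 0.166.

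Androgen-responsive kidney genes were lower in 10 of 11, with a median of -0.999, yet 1 was called, the urate exchanger Slc22a12. Kap, the kidney androgen-regulated protein, measured 6174, 35781 and 41198 FPKM in STZ+AOS and 55167, 74117 and 54474 in STZ+AOS-FMT (-1.54 ± 0.89, limma adjusted p = 0.22). The groups did not overlap, which also held for 9.49% of all genes tested in this direction. Kap made up 1.02% of the summed FPKM in STZ+AOS replicate 1 and 11.06% in STZ+AOS-FMT replicate 2. Of 16 clock genes, 8 were higher and 8 lower, with 2 called higher, Arntl and Npas2, and 1 lower, the clock output Hlf, counts near the shares of all genes. Arntl measured 8.60, 3.21 and 12.85 against 1.49, 1.82 and 1.39 FPKM, with 3.15 to 5.93 in the control transfer, and passed at 0.031 in limma as deposited but at 0.098 after quantile normalization. Of the 3 clock calls, 1 held without STZ+AOS replicate 1, and 0 held in limma without STZ+AOS-FMT replicates 2 or 3. The hour of tissue collection is not stated.

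A set of 38 genes kept its call in each of the 6 fits with 1 library left out, and all 38 also passed under both other scalings. With Cyp11b1, which itself separates the groups, as a covariate, 0 of them were called in limma. They were singled out after their values were seen. Of them 30 were lower in STZ+AOS, by 0.45 to 1.76 on the log2 scale, and 8 were higher, by 0.63 to 1.38. In 29 of the 30 lower genes the control-transfer libraries all lay above every STZ+AOS library, and in 13 they also lay below every STZ+AOS-FMT library. In all 8 higher genes the control-transfer libraries lay below every STZ+AOS library. The genes were selected for STZ+AOS libraries that stand apart, and these shares were not computed over all genes. The counts therefore cannot show whether this place of the control transfer is particular to the set.

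Fmo1, a flavin monooxygenase that oxidizes drugs, measured 181.9, 270.4 and 261 FPKM in STZ+AOS and 498, 459.8 and 513 in STZ+AOS-FMT, with 385.5 to 429.1 in the control transfer (-1.06 ± 0.14, limma adjusted p = 0.0071). With the libraries above 100 FPKM of Cyp11b1 left out, the Fmo1 difference was -0.855 and rested on STZ+AOS replicate 2 alone. Pcbd1 and Qdpr, which recycle tetrahydrobiopterin, the cofactor of phenylalanine hydroxylase, were both in the set. Pcbd1 measured 246.7, 332.8 and 275.1 against 477.1, 470.6 and 451, and Qdpr 144.2, 203 and 162.8 against 270.9, 277.1 and 281.6. Their differences were nearly equal, -0.72 and -0.71.

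Slc6a20b, an imino acid transporter, measured 39.76, 56.59 and 45.45 FPKM against 96.91, 96.58 and 100.5 (-1.05 ± 0.17, limma adjusted p = 0.0089). Ak4, a mitochondrial adenylate kinase, measured 41.47, 85.55 and 46.69 against 131.8, 132.3 and 156.8, and Msra, which repairs oxidized methionine, 190.4, 252.6 and 215.5 against 306.4, 321.4 and 333.1. Proz and F13b, which code for a vitamin K-dependent plasma protein and a subunit of coagulation factor XIII, were in the set as well, with F13b at 29.69, 35.55 and 43.66 against 66.31, 69.46 and 69.11. Slc13a4, a sulfate transporter, measured 0.69, 0.97 and 1.42 against 2.39, 2.80 and 2.64.

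The 8 higher genes were Sumo3, Mapk6, Sash1, Creb3l1, Inhbb, Clstn3, Pnrc1 and 1700016C15Rik. Sumo3, a ubiquitin-like modifier, measured 41.91, 38.99 and 39.55 FPKM against 26.73, 25.43 and 24.90. Pnrc1, a coactivator of nuclear receptors, measured 84.16, 60.84 and 94.95 against 29.49, 26.17 and 40.57. Inhbb, a subunit of activin and inhibin, measured 2.20, 1.25 and 2.25 against 0.36, 0.28 and 0.34, and Creb3l1, a transcription factor of the endoplasmic reticulum, 7.14, 6.5 and 5.16 against 3.36, 2.29 and 2.32.

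Across the lists, the medians ran from -0.999 for androgen-responsive genes to 3.88 for the adrenal cortex, against 0.17 for all genes. Lists of other nephron segments had smaller medians. Thick ascending limb, distal and connecting tubule, principal cells and intercalated cells had medians of 0.32, -0.08, 0.25 and 0.29, with 0 of 40 members called in limma and 7 at an unadjusted p under 0.05. Lists of adipocyte, T and NK, B and red cells, class II antigen presentation and the cell cycle also had 0 calls in limma, with 1, 1, 0, 2, 0 and 0 members at an unadjusted p under 0.05. Spermatid genes were at 0 in 9 to 11 of 12 in each of the 6 libraries. All 23 ribosomal protein genes were higher (22 and 20 under quantile and median-of-ratios scaling), with 0 called in limma and 4 at an unadjusted p under 0.05. Their median of 0.25 is 0.074 above that of all genes. After quantile normalization 4 of them were called higher.

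**Figure D5:**
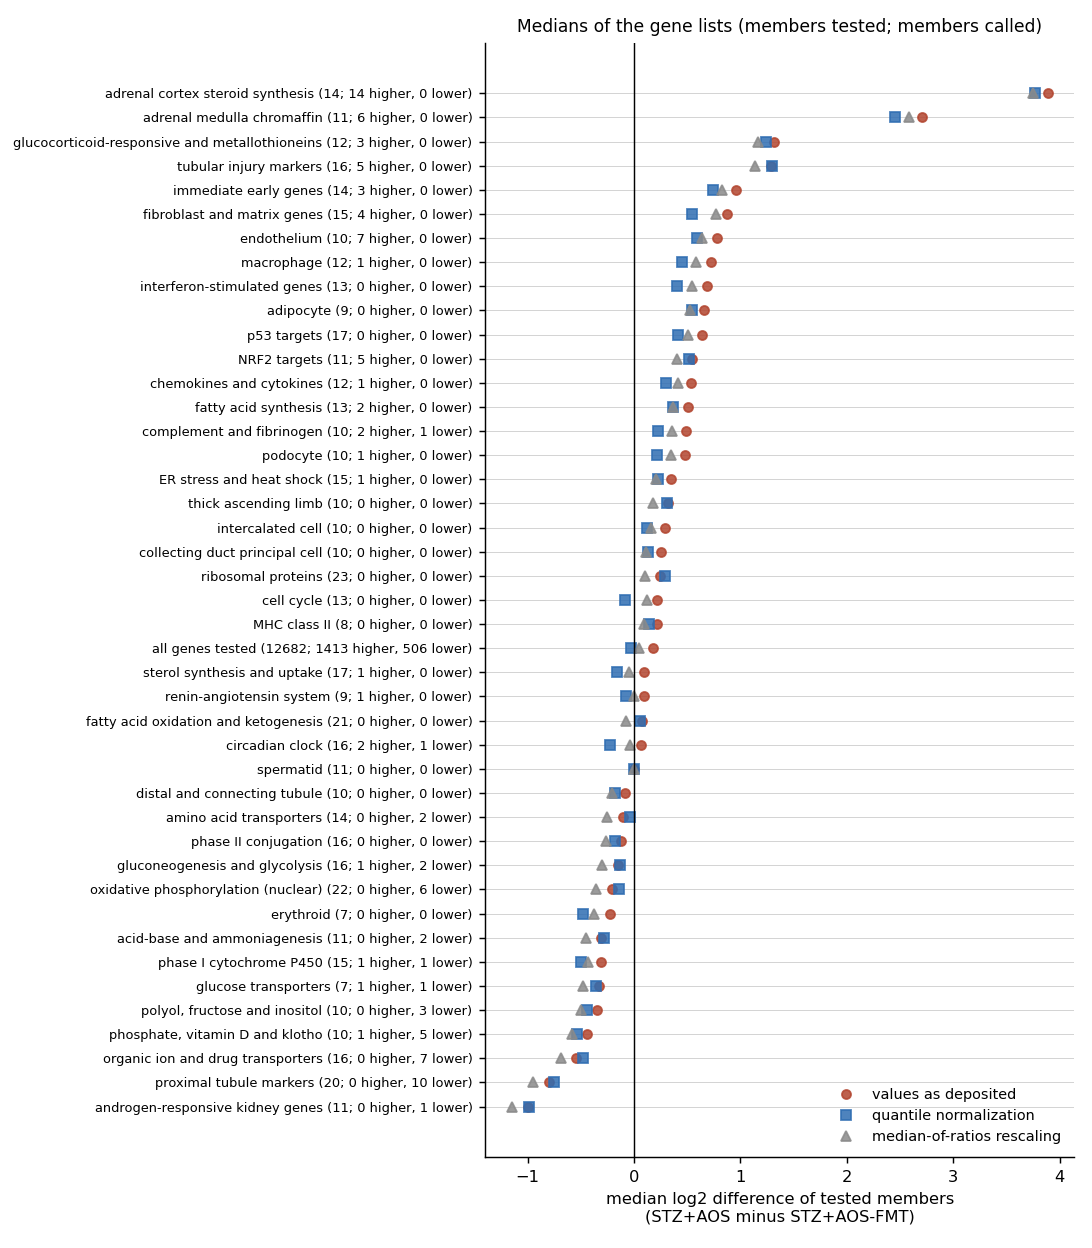
Median log2 difference (STZ+AOS minus STZ+AOS-FMT) of each gene list with at least 7 tested members and of all genes, for 3 scalings, with the members tested and called in brackets. The adrenal lists lie highest, at 3.88 and 2.71, and the androgen-responsive and proximal tubule lists lowest, at -0.999 and -0.80, under the values as deposited.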

How the data were processed

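The authors deposited 1 table of normalised expression per gene for 18 mouse kidney libraries. Its values are taken as FPKM, deposited without read counts, since length-weighted sums are nearly equal between libraries (coefficient of variation 0.939%). Reads were aligned with Bowtie 0.12.2 to mm10, per the submitters' processing notes. For the counting tool, its annotation and strand, the sources used here give nothing, and depth is unknown. Of 19545 entries, 18990 matched GENCODE M21 by symbol.

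Groups follow the labelled treatment. Differences of log2(FPKM + 1), computed here from the deposited FPKM, were fitted with limma 3.58.1 in R 4.3.3 over all 18 libraries, 1 mean per group, with the trend and robust options, for genes at 1 FPKM or more in at least 3 libraries (12682, with 6863 below). Fold changes on this scale understate those of low genes. P-values were adjusted over every tested gene (Benjamini-Hochberg) and called under 0.05. With 3 libraries a group, the smallest p of an exact permutation test is 0.1. On simulated data 83% of genes changed by 1 and 98% of those changed by 2 on the log2 scale were called, with 9 and 12 false calls. The changed genes were drawn from the more abundant ones, and all groups were given the same spread. The STZ+AOS libraries varied more than the transfer libraries, so these rates need not hold here.

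Members and gene lists were chosen with earlier results of these data known. Named genes are the largest rises and falls among called genes without overlap (10 each way, and 8 each way at a mean of 20 FPKM or more), those kept without the libraries above 100 FPKM of Cyp11b1, and members of the 46 lists. Genes named after their values were seen are the 38 described as such. Alternatives were other scalings, filters, pseudocounts and limma options, a replicate block, Cyp11b1 as a covariate, and leaving out libraries. A few results are not reported here.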

Additional observations from a re-analysis of the deposited data

How the results depend on the processing

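Against 1413 genes called higher and 506 lower, quantile normalization gave 563 and 807, median-of-ratios rescaling 939 and 905, and the 6 compared libraries alone 880 and 258. A mean of at least 5 FPKM gave 798 higher, from fewer genes tested, and weights for each library 2675 higher. With Cyp11b1 as a covariate there were 0 and 0 in limma (298 and 803 at an unadjusted p under 0.05), and with the libraries above 100 FPKM of Cyp11b1 left out there were 4 and 2, with fewer samples. Leaving out 1 library gave 9 to 1514 higher and 33 to 628 lower, fewest without STZ+AOS-FMT replicate 2. The cause of the other shifts was not tested. Under the Cyp11b1 covariate the differences of Akr1b7, Akr1cl, Hsd3b1 and Star turned to -0.043, -0.843, -0.53 and -0.274. Cyp11b1 itself separates the compared groups, so a loss of difference in genes that vary with it is built into this fit. The fit cannot decide the source of the differences. Of the 28 genes named for the size of their change or from the fit without the libraries high in Cyp11b1, Mdk and Akr1cl lost their call after quantile normalization. The replicate block gave 1653 higher and 550 lower. Same-numbered libraries had correlations of deviations of 0.188, -0.077 and 0.174, and differently numbered ones -0.228 to 0.07. Not every library correlated best with its own number. With 3 libraries a group, whose deviations sum to 0, these values cannot decide whether the numbers pair the samples. Depth limits cannot be stated without counts.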

Other observations

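The beta-globin genes of the red cell list varied widely between libraries. Hbb-bs measured 1.07, 1.21 and 2.6 FPKM in STZ+AOS and 783.1, 114.7 and 1298 in STZ+AOS-FMT, and did not pass the threshold (limma adjusted p = 0.053). Hbb-bt measured 0.23, 0.58 and 0.92 against 104.5, 14.84 and 163.6 (limma adjusted p = 0.057). Hbb-b1 measured 828.1, 5546 and 2245 against 2195, 2524 and 1683, with overlapping groups. Libraries near 0 for Hbb-bs also occurred in other groups, at 0 in control replicate 1, 1.04 in AOS replicate 1 and 2.09 in STZ replicate 2. Hbb-bs shares 53.2% of its 50-base words with Hbb-bt, so the split of reads between them is uncertain.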
